A study of Homo sapiens with 12 samples.

Results

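The granins and the enzymes that process neuropeptides were examined as 10 genes: CHGA, CHGB, SCG2, SCG3, SCG5, VGF, PCSK1, PCSK1N, PCSK2 and CPE. They were chosen by name as rows of the deposited count table, which holds 59653 gene symbols, and all 10 had a row and passed the filter on low counts. Total RNA was sequenced from IMR-90 neurons, made from human induced pluripotent stem cells; IMR-90 began as a line of lung fibroblasts, and the sample titles also carry the letters NPC. Cells of 6 libraries received a non-targeting control siRNA (siNC). Those of the other 6 received an siRNA that targets ZCCHC17 (siZCC), the gene of a zinc knuckle protein of the nucleus. All the cells came from this single line and all received an siRNA; the labels give neither the siRNA sequences nor the time after treatment, and they do not say whether the replicates are separate cultures, so p-values measure only the spread between these libraries.

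Granins are acidic, soluble proteins of the dense-core vesicle, the organelle in which neurons and endocrine cells store peptides. They aggregate in the trans-Golgi network and help to package cargo, and several are themselves cut into peptides. The cutting is done by the prohormone convertases PC1/3 (from PCSK1) and PC2 (from PCSK2) at pairs of basic residues, after which carboxypeptidase E (from CPE) trims the exposed lysines and arginines. ProSAAS (from PCSK1N) inhibits PC1/3, and 7B2 (from SCG5) assists the maturation of PC2 and inhibits it.

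Several genes of this group are textbook targets of CREB, which binds the cyclic AMP response element TGACGTCA. RefSeq promoters on GRCh38.p14 (250 bases before to 50 after the annotated start) were at hand for 8 of the 10 genes, in 10 windows because PCSK1 and PCSK2 have 2 starts each; none was at hand for CHGB and SCG2. The element stood in 3 windows, those of CHGA, VGF and 1 start of PCSK1, and in 1.85% of all 35116 promoter windows. It reads the same on both strands. The 30 bases around it are shown because a granin, a granin-like precursor and a convertase share the same 8 letters; their levels and fold changes are given later, and no test compared their fold changes. Capitals mark the element, whose first base lies 54 bases upstream of the start in CHGA, 79 in VGF and 77 in PCSK1:
CHGA promoter (chr14:92923085-92923114, plus strand): ggcggcaccgcTGACGTCAtttccggggtc
VGF promoter (chr7:101165630-101165659, minus strand): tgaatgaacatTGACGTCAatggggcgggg
PCSK1 promoter (chr5:96433307-96433336, minus strand): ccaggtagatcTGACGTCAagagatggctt

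The core TGACG, searched on both strands and overlapping the full element, was in 8 of the 10 windows and in 24.6% of all windows. Those 8 windows covered 7 of the 8 genes, all but PCSK1N. REST, a repressor of neuronal genes, binds a longer element whose left side contains TTCAGCACC and whose right side contains GGACAGC. Both words, searched on both strands, occurred together in the SCG3 window just after the start, the left at base 9 and the right at base 26. The search set no distance between the words, and their spacing was not compared with that of the element. The stretch is shown here with the words in capitals:
SCG3 (chr15:51681511-51681534, plus strand): TTCAGCACCcacagggcGGACAGC
The left word was in 0.376% of all windows and in no other window of the group; the right word was in 6.03% of all windows and in those of PCSK1, PCSK2, SCG3 and VGF. These matches describe letters only, and binding was not measured.

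The siNC libraries held 90755953 to 120023356 counts each, and the siZCC libraries 76115083 to 105389055. Levels are given as CPM, the count relative to the library's total scaled by TMM factors. ZCCHC17 ran from 53.99 to 61.0 CPM in the siNC libraries, and the siZCC libraries held 9.37 to 10.6 CPM, so the targeted transcript was low in each library labelled siZCC. IL1B set the libraries apart within both groups: it had 2 to 12 counts in 6 libraries and 449 to 1512 counts in the other 6, with 3 libraries of each group on either side. The labels name no cause for this split, and values on each side are given below. The neuron markers examined were all detected, but so were markers of neural progenitors, astrocytes and dividing cells, so the libraries hold RNA of more than neurons.

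Levels were compared between genes per kilobase of annotated exon (GENCODE release 29), since longer transcripts collect more reads. PCSK1N was highest, at 140 ± 11.6 CPM per kilobase in siNC (SD, n = 6), and CPE followed at 116 ± 4.91. The ranges of their siNC libraries overlapped, but PCSK1N was above CPE within each siNC library, and no test compared them. SCG2, which encodes the precursor of secretoneurin, stood at 104 ± 2.28 CPM per kilobase. VGF, a granin-like precursor induced by neurotrophins, was at 51.4 ± 4.35 and SCG3, a granin that tethers other granins to the vesicle membrane, at 43.7 ± 1.62. The chromogranins were lower, CHGB at 20.5 ± 1.30 and CHGA at 8.27 ± 0.695 CPM per kilobase. PCSK1 stood at 2.65 ± 0.183, SCG5 at 0.541 ± 0.0819 and PCSK2 at 0.0227 ± 0.00285 CPM per kilobase (SD, n = 6 each). In siNC, only the top pair overlapped; in siZCC the order was the same, and there VGF overlapped SCG3. The inhibitor and the trimming enzyme were therefore far more abundant, as transcripts per length, than either convertase.

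**Figure D1:**
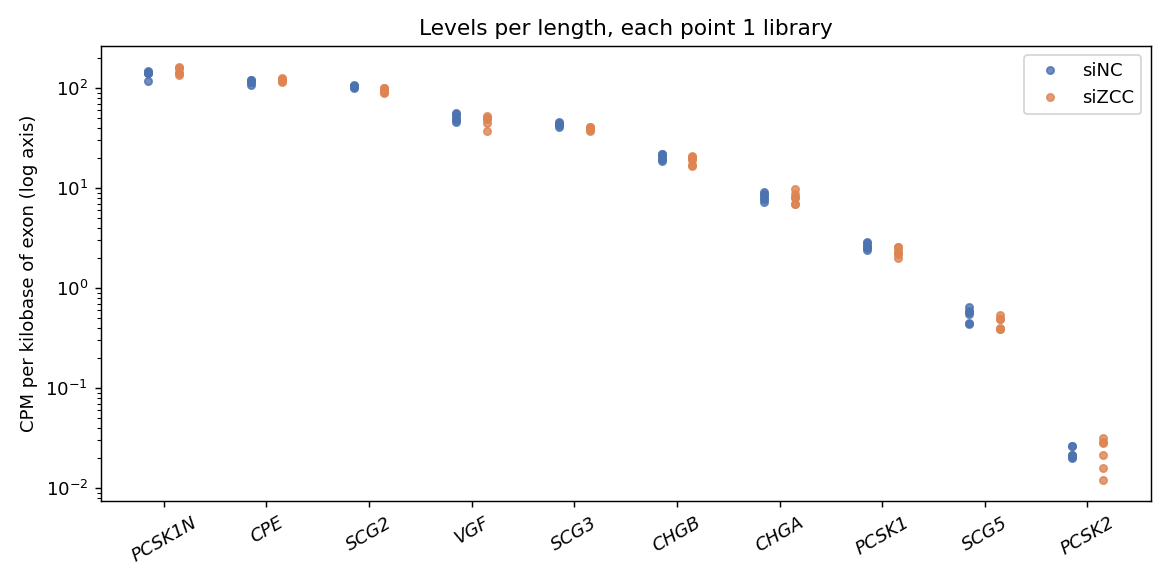
Level of each gene in CPM per kilobase of annotated exon (log axis), each point 1 library, siNC in blue and siZCC in orange. The genes fall from PCSK1N, at a mean of 140 in siNC, to PCSK2, at 0.0227.

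The levels of PCSK2 and SCG5 rest on few reads. PCSK2 had 8 to 22 counts per library, against 899 to 1833 for PCSK1. SCG5 had 66 to 164 counts, and its value is uncertain for another reason: RefSeq annotates a readthrough locus, ARHGAP11A-SCG5, that spans all of SCG5, the table has 0 rows of that name, and how reads shared by overlapping genes were assigned is not given in the sources used here. An antisense gene also overlaps SCG5 exons.

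The comparison of siZCC with siNC asked whether lowering ZCCHC17 was accompanied by a change in these genes. Of the 10 genes, 3 fell (SCG2, SCG3 and PCSK1), 0 rose and 7 did not pass an adjusted p of 0.05 in edgeR's quasi-likelihood test; over all 24671 genes tested, 22.2% were called, 10.8% lower and 11.4% higher. The changes were small. The 3 genes that fell did so by 7.79% to 12.03%, and the median absolute log2 fold change over all 5481 genes called was 0.22. The log2 fold change was negative in 7 of the 10 genes, with a median of -0.11, against a median of -0.0016 over all genes tested. The groups did not overlap in 2 of the 10 genes, both lower in siZCC, while 9.74% of all genes tested separated, 4.5% with siZCC lower and 5.25% with siZCC higher.

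**Figure D2:**
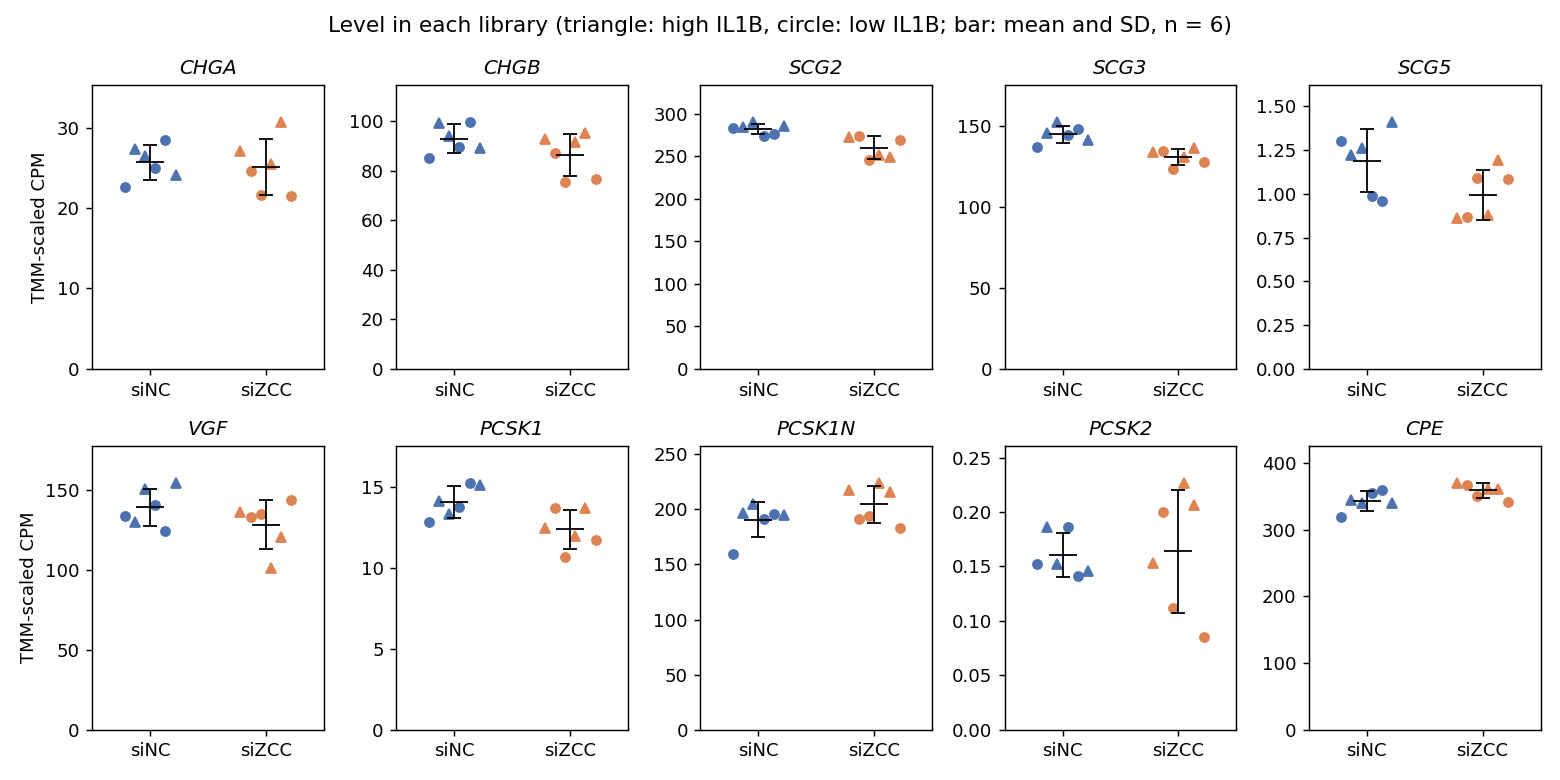
TMM-scaled CPM of each gene in each library (linear axes from 0), with the mean and SD of 6 libraries per group; triangles are the libraries with high IL1B and circles those with low IL1B. SCG2 and SCG3 separate the groups without overlap, and the other 8 genes overlap.

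SCG3 (chr15:51681353-51721031 on GRCh38, GENCODE release 29) showed the smallest p-value of the group. Its level ran from 137 to 152 CPM in siNC, with a median of 145, and from 123 to 136 CPM in siZCC, with a median of 132. Every siZCC library lay below every siNC library. The log2 fold change was -0.14 (SE 0.0320, edgeR quasi-likelihood test, Benjamini-Hochberg adjusted p 0.00396), and the call held in each of the 12 fits that left out 1 library.

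SCG2 (chr2:223596940-223602503) ran from 273.8 to 290.5 CPM in siNC (median 284) and from 245 to 273.8 CPM in siZCC (median 260.3). The groups did not overlap, but the highest siZCC library, at 273.76 CPM, was only just under the lowest siNC library, at 273.80 CPM. The log2 fold change was -0.12 (SE 0.0324, edgeR adjusted p 0.0153), and this call too held without each library in turn.

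The chromogranins, the granins used most widely as markers of neuroendocrine cells, did not pass the test. CHGA (chr14:92923080-92935293) ran from 22.6 to 28.4 CPM in siNC (median 25.7) and from 21.5 to 30.7 CPM in siZCC (median 24.99), so the siZCC range enclosed the siNC range. Its log2 fold change was -0.03, with a 95% interval from -0.19 to 0.13. CHGB (chr20:5911430-5925361) ran from 85.3 to 99.7 CPM in siNC (median 91.9) and from 75.5 to 95.4 CPM in siZCC (median 89.5). Only 2 siZCC libraries, replicates 3 and 6, were below every siNC library for CHGB. Its log2 fold change was -0.10, with an interval from -0.22 to 0.02.

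VGF (chr7:101162509-101165593) ran from 124 to 154 CPM in siNC (median 137) and from 101 to 144 CPM in siZCC (median 134). The groups overlapped widely, with siZCC replicate 4 lowest. The log2 fold change was -0.12, with an interval from -0.27 to 0.03 (edgeR adjusted p 0.267). It was -0.054 without siZCC replicate 4 and ran from -0.16 to -0.054 over the fits that left out 1 library.

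PCSK1 (chr5:96390415-96434143), the convertase of the regulated secretory pathway that was measurable here, fell by 0.18 on the log2 scale (SE 0.0618, edgeR adjusted p 0.0400). It ran from 12.8 to 15.3 CPM in siNC (median 13.97) and from 10.7 to 13.7 CPM in siZCC (median 12.2), and 4 of 6 siZCC libraries lay below every siNC library. The call was near the threshold: it was lost in 8 of the 12 fits that left out 1 library (siNC replicate 2, 4, 5 or 6, or siZCC replicate 1, 3, 4 or 6), with adjusted p between 0.0556 and 0.0886, although the log2 fold change stayed between -0.22 and -0.15.

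PCSK1N (chrX:48831094-48835633), whose product inhibits PC1/3, had the opposite sign. It ran from 160 to 205 CPM in siNC (median 195) and from 183 to 224 CPM in siZCC (median 205). Of the siZCC libraries 3 lay above every siNC library, and siNC replicate 1 lay apart from its group at the low end. The log2 fold change was 0.10, with an interval from -0.02 to 0.22, and did not pass (edgeR adjusted p 0.231). It was 0.06 without siNC replicate 1.

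CPE (chr4:165361194-165498320) was the most abundant of the group in CPM. It ran from 318 to 359 CPM in siNC (median 342) and from 342 to 370 CPM in siZCC (median 361). The groups overlapped, although 4 siZCC libraries exceeded the highest siNC library. The log2 fold change was 0.06, with an interval from -0.0014 to 0.13 (edgeR adjusted p 0.155).

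PCSK2 and its partner SCG5 gave wide intervals. PCSK2 (chr20:17226107-17484578) averaged 0.161 ± 0.0201 CPM in the siNC and 0.164 ± 0.0569 CPM in the siZCC libraries (SD, n = 6 each), and its log2 fold change of 0.02 had an interval from -0.47 to 0.51. SCG5 (chr15:32641676-32697098) was at 1.19 ± 0.180 and 0.995 ± 0.143 CPM (SD, n = 6 each), a log2 fold change of -0.26 with an interval from -0.51 to -0.0092 that did not pass after adjustment over all genes (edgeR adjusted p 0.131). These intervals are too wide to show a difference of the size seen in PCSK1.

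**Figure D3:**
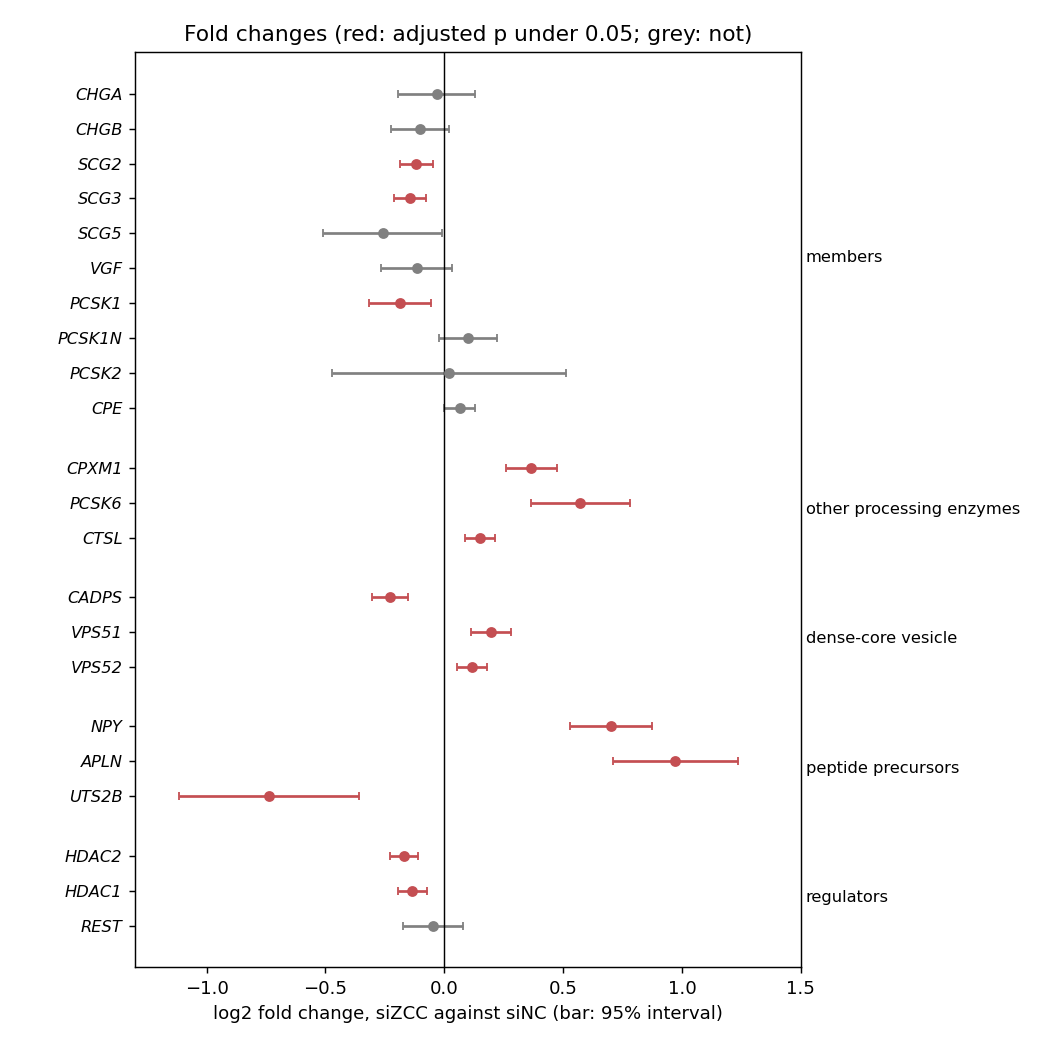
Log2 fold change of siZCC against siNC for the 10 genes (members) and for genes named from related lists, with 95% intervals; red marks an adjusted p under 0.05. The 10 genes lie between -0.26 and 0.10, while the peptide precursors APLN (0.97) and NPY (0.70) lie farther out. Except for REST, the list genes were picked for the smallest p-values in their lists, and the 10 genes were not. The median of the precursor list was 0.04.

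Ratios of counts within a library do not depend on library scaling, and 4 were compared, each by an exact permutation test (two-sided) over the libraries. The ratio of inhibitor to enzyme rose: log2 PCSK1N to PCSK1 rose from 3.76 ± 0.112 in siNC (3.64 to 3.94) to 4.05 ± 0.158 in siZCC (3.81 to 4.22; SD, n = 6 each). This is a change from 13.5 to 16.5 counts of PCSK1N per count of PCSK1. The difference was 0.29 (SE 0.0792, exact permutation p 0.00433, adjusted over the 4 ratios 0.0173), and 5 of 6 siZCC libraries lay above every siNC library, siZCC replicate 2 being the exception.

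The other ratios did not pass. Log2 CHGA to CHGB was -1.86 ± 0.0388 in siNC and -1.79 ± 0.0791 in siZCC (SD, n = 6 each), a difference of 0.07 (SE 0.0360, exact permutation p 0.0519, adjusted 0.104). Log2 SCG5 to PCSK2 was 2.85 ± 0.313 and 2.63 ± 0.652, and log2 PCSK1 to PCSK2 was 6.42 ± 0.223 and 6.27 ± 0.465 (SD, n = 6 each). Their differences were -0.22 (SE 0.295) and -0.15 (SE 0.210), with adjusted exact permutation p of 0.485 for both.

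**Figure D4:**
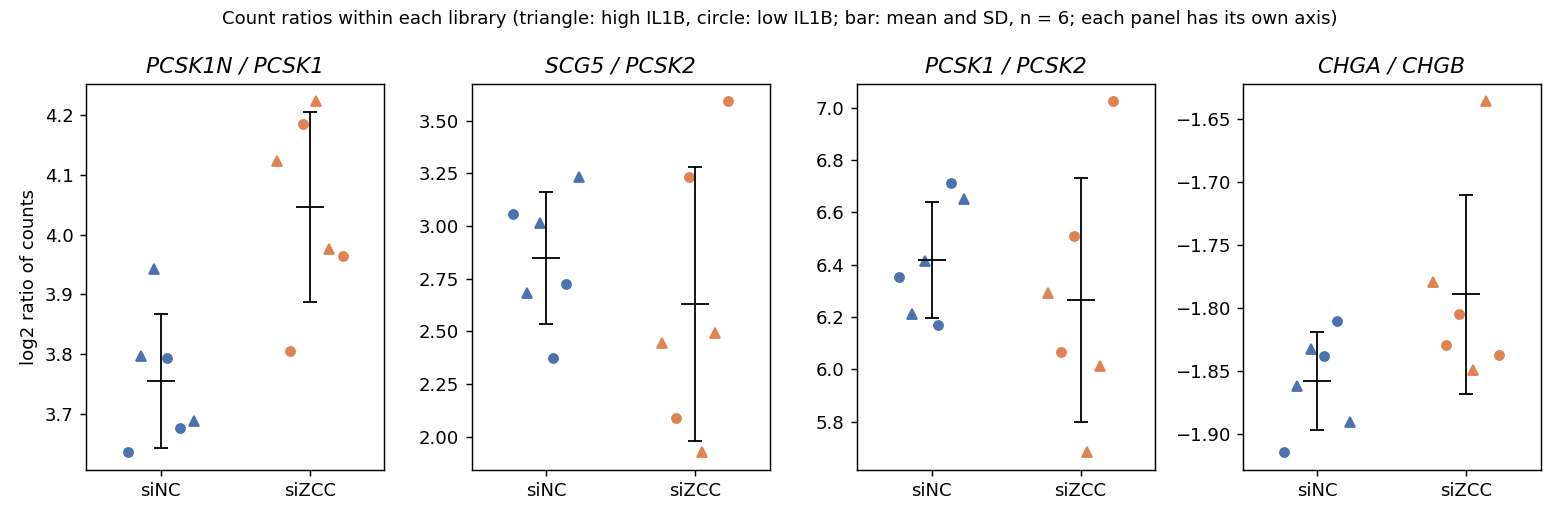
Log2 ratio of counts in each library for 4 gene pairs, with the mean and SD of 6 libraries per group; triangles are high and circles low IL1B libraries, and each panel has its own axis. PCSK1N to PCSK1 lies higher in 5 of the 6 siZCC libraries than in any siNC library, and the other pairs overlap more.

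On the 2 sides of the IL1B split, each with 3 libraries per group, the genes that fell kept their sign but none passed alone. Over all genes, 2043 of 24925 were called on the high side and 1602 of 24824 on the low side, also fewer than with all 12 libraries. SCG3 had a log2 fold change of -0.13 on the high side and -0.16 on the low side (edgeR adjusted p 0.0728 and 0.0681), SCG2 of -0.16 and -0.08 (0.0524 and 0.342), and PCSK1 of -0.16 and -0.21 (0.1996 and 0.203). The ratio of PCSK1N to PCSK1 was higher by 0.30 and 0.28, where 3 against 3 cannot give an exact permutation p below 0.1. With the split as a block all 3 calls remained. VGF and CHGA had opposite signs on the 2 sides: VGF was at -0.29 on the high and 0.05 on the low side, and CHGA at 0.09 and -0.17. A test of that difference, an interaction term in edgeR, gave an unadjusted p of 0.0168 for VGF and 0.0470 for CHGA, but adjusted p of 0.935 for both. It called 0 of 24671 genes, with 1177 at an unadjusted p under 0.05, so neither difference held up over all genes.

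The genes also varied among themselves from library to library within a group. With each group's mean removed, log2 CPM of CHGA and CHGB had a Pearson r of 0.95 over the 12 libraries (Spearman's rho 0.98, and r 0.96 without the 2 libraries farthest from the median of CHGA). These correlations are a description, given without a test, of libraries that share their scaling. CHGA, CHGB, SCG3, PCSK1, PCSK1N, CPE and PCSK2 were positively related in all 21 of their pairs, with r from 0.37 to 0.95. Without the 2 farthest libraries these r stayed positive but ran from 0.05 (PCSK1N and CPE, 0.69 with all 12) to 0.96. This set of 7 was picked after the values were seen, and it was uniform only on the low side of the IL1B split, where 21 of 21 pairs were positive, against 10 of 21 on the high side. The CHGA and CHGB pair kept an r of 0.81 on the high side and 0.97 on the low side. VGF, SCG2 and SCG5 stood outside: 19 of the 24 pairs that include at least 1 of them, those among themselves counted, were negative. Over the 12 libraries VGF and SCG5 were negative against each of the 7 genes, while SCG2 had mixed signs against them, with r from -0.17 to 0.29. VGF and SCG5 were also negative against each of the 7 on the low side, but had mixed signs on the high side. There SCG5 had an r of 0.84 with PCSK1 and -0.53 with CPE, and VGF of 0.42 with CPE and -0.95 with PCSK2. VGF ran opposite to CHGB (r -0.54, with -0.33 on the high and -0.66 on the low side). VGF and SCG2 had an r of 0.52, which was 0.71 on the high side and 0.05 on the low side.

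**Figure D5:**
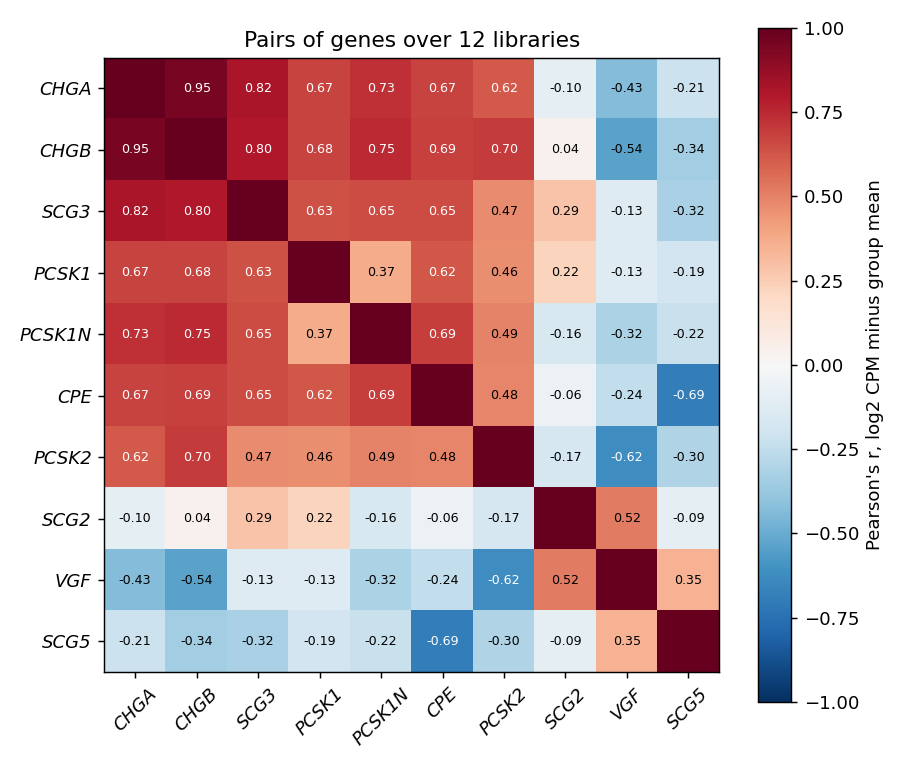
Pearson's r between pairs of the 10 genes over 12 libraries, from log2 CPM with each group's mean removed; red is positive and blue negative. The upper left block of 7 genes is positive throughout. VGF and SCG5 are negative against each gene of it, while SCG2 has mixed signs, from -0.17 to 0.29. Neither the block nor the negative signs of VGF and SCG5 were uniform on the high IL1B side alone.

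Outside the group, 12617 genes averaging 5 CPM or more were ranked by their Pearson r with the mean standardised level of the 10 genes, again with group means removed. The 5 most alike over the 12 libraries were LRRTM1 (r 0.95), a synaptic adhesion protein, ST7 (0.94), the translation factor EIF4G2 (0.92), the homeobox factor MEIS2 (0.91) and the G protein subunit GNG2 (0.90). As the highest of 12617 values over 12 libraries, these r are high in part by selection. VGF and SCG5 ran opposite to 7 of the 10 genes, so a gene like the mean need not be like each of the 10. GNG2, MEIS2 and EIF4G2 also fell in siZCC, by 0.17, 0.14 and 0.09 on the log2 scale, while LRRTM1 (-0.03) and ST7 (-0.09) did not pass the test.

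Related genes were followed in 4 lists. Genes named from them are the 3 smallest p-values among those called, and any others named were added after their values were seen. Lack of overlap in genes so named follows largely from that choice and adds no support. The groups separated in 3, 2, 2 and 2 genes of the 4 lists, in the order below, and in 9.74% of all genes tested. Of 16 other propeptide-processing enzymes, 15 passed the filter, 4 rose and 2 fell, with a median log2 fold change of -0.02. PCSK6, a convertase of the constitutive pathway, rose from 1.002 ± 0.123 to 1.497 ± 0.161 CPM (SD, n = 6 each; log2 fold change 0.57, SE 0.0988). CPXM1, a carboxypeptidase relative of CPE thought to lack enzyme activity, rose by 0.37 (SE 0.0507) on the log2 scale, and CTSL, the protease cathepsin L, by 0.15 (SE 0.0304). The groups did not overlap in any of the 3, and PCSK4 also rose (0.18), while CPXM2 (-0.59) fell. PAM, which amidates finished peptides, was the most abundant of the list, averaging 198 ± 16.1 CPM with siNC and 180 ± 12.5 CPM with siZCC (SD, n = 6 each), a log2 fold change of -0.14 that did not pass (edgeR adjusted p 0.0704).

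All 31 genes of dense-core vesicle biogenesis and release passed the filter; 5 rose, 2 fell and the median was -0.0063. CADPS, which primes dense-core vesicles for release, fell from 88.1 ± 4.53 to 75.2 ± 2.89 CPM (SD, n = 6 each; log2 fold change -0.23, SE 0.0363, edgeR adjusted p 2.90e-04), with no overlap of the groups. SYT4, a vesicle synaptotagmin, also fell (-0.21). VPS51 and VPS52, subunits of tethering complexes that sort vesicle cargo, rose by 0.20 (SE 0.0390) and 0.12 (SE 0.0301) on the log2 scale, as did EIPR1 (0.10), CADPS2 (0.12) and BAIAP3 (0.16). The vesicle membrane proteins PTPRN (-0.03) and PTPRN2 (-0.0021) did not pass.

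Of 48 precursors of neuropeptides and peptide hormones, only 24 passed the filter. The summed level of all 48 was 44.7 ± 2.22 CPM with siNC and 51.9 ± 1.81 CPM with siZCC (SD, n = 6 each). That was small beside the 1233 ± 41.2 and 1208 ± 38.5 CPM of the 10 genes together, although neither sum was scaled by length. Of the 24, 3 rose and 1 fell, with a median of 0.04. NPY, a peptide of cortical interneurons and sympathetic neurons, rose from 4.30 ± 0.528 to 6.99 ± 0.633 CPM (log2 fold change 0.70, SE 0.0810, edgeR adjusted p 1.71e-05), and APLN, which encodes apelin, from 2.69 ± 0.648 to 5.30 ± 0.488 CPM (0.97, SE 0.125; SD, n = 6 each). Neither overlapped between groups. UCN also rose (0.20), and UTS2B, which had at most 48 counts in a library, fell by 0.74 (SE 0.180).

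Of 16 transcription factors and cofactors known at granin genes, all passed the filter, 1 rose and 3 fell, with a median of 0.0053. HDAC2 and HDAC1, deacetylases of the REST complex, fell by 0.17 (SE 0.0288) and 0.13 (SE 0.0286) on the log2 scale without overlap of the groups, and the coactivator CREBBP also fell (-0.14). REST itself was at 35.5 ± 3.53 and 34.3 ± 2.46 CPM (SD, n = 6 each), a log2 fold change of -0.05 with an interval from -0.17 to 0.08. CREB1 (-0.02) did not pass either. Together the 4 lists, with 15, 31, 24 and 16 genes tested, had 21 genes called, 13 higher and 8 lower. Over all 24671 genes tested, 22.2% were called, 11.4% higher and 10.8% lower.

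Some markers of the cell types in the cultures moved beside these results. Counts of markers called, here and in the next paragraph, stand beside 22.2% called over all 24671 genes tested, 10.8% lower and 11.4% higher. Of 14 neuron markers, 7 fell and 1 rose, with a median log2 fold change of -0.15, and their summed level ran from 4008 to 4479 CPM in siNC and from 3614 to 4109 CPM in siZCC; MAP2, the most abundant, did not pass (0.0081). In bulk RNA, fewer neurons and less RNA per neuron cannot be told apart. Of 7 proliferation markers 6 fell, their sum running from 676 to 758 CPM in siNC and from 547 to 637 CPM in siZCC, TOP2A being the most abundant. Of 9 neural progenitor markers 3 rose and 1 fell (sums from 5990 to 6377 and from 6049 to 6577 CPM, led by VIM), and of 8 astrocyte markers 3 rose and 1 fell (sums from 1637 to 1860 and from 1704 to 2025 CPM, led by GFAP). The part of these shifts in the results above was not tested.

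Cell types with especially high granin levels were looked for through 9 chromaffin and sympathoadrenal markers, of which 5 were tested. DBH (means of 0.0244 CPM in siNC and 0.0099 in siZCC) was below the 0.0250 to 0.0401 CPM that 3 counts are worth in these libraries, and TH was at 0.229 and 0.238 CPM. GATA3, at 100.2 ± 8.95 CPM in siNC (SD, n = 6), made up most of that list's sum, and SLC18A1 alone fell (-0.25). Of 6 oligodendrocyte lineage markers 5 were tested and 1 fell. Their sums ran from 147 to 184 and from 150 to 184 CPM, with SOX10 at 0.0216 and 0.0213 CPM. Of 6 fibroblast and mesenchymal markers 1 rose and 2 fell (sums from 179 to 408 and from 156 to 287 CPM, led by COL1A1). Of 5 microglia markers 3 were tested and none was called (sums from 1.35 to 2.58 and from 1.41 to 2.43 CPM, led by CSF1R). Of 4 pluripotent cell markers 3 were tested and 2 rose (sums from 15.4 to 16.97 and from 19.99 to 21.9 CPM, led by NANOG).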

How the data were processed

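The authors deposited raw whole-number counts per gene symbol for 12 libraries, 6 siNC and 6 siZCC. Per the labels' protocols, Qiazol was the lysis reagent and libraries were made with a directional NEBNext Ultra II kit. Per the submitters' processing notes, bcl2fastq 2.17, STAR 2.7.6a, featureCounts 2.0.1 and GRCh38 were used; the annotation and strand setting are not given in the sources used here. Groups and replicate numbers came from sample titles. Counts were filtered with edgeR 4.0.16 (filterByExpr, about 0.0997 CPM, 24671 genes kept), scaled by TMM factors and compared by the quasi-likelihood test over all 12 libraries in R 4.3.3, with Benjamini-Hochberg adjustment over all genes kept. Log2 CPM used a prior count of 2, and ratios added 0.5 to each count. Exact permutation tests ran over 924 assignments, whose smallest p is 0.00216. The common biological coefficient of variation was 6.55%, and 3 counts are worth 0.0250 to 0.0401 CPM. Exon lengths and positions came from GENCODE 29. Scripts were tested on simulated data. The genes, the lists and the rule for named genes (all 10 genes, ZCCHC17, REST, the 3 smallest p-values called in each of 4 lists, and the 5 genes most alike) were chosen with earlier results of these data known. A few genes that the rule or the lists include are not reported here. Alternatives were other scalings, filters, DESeq2 1.42.0, limma voom 3.58.1, blocks by replicate number or IL1B split, thinning to the smallest library, each side of the split and leaving out each library; the interaction test was added later.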

Additional observations from a re-analysis of the deposited data

Results flagged for a closer look

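Of 68 sets of 6 libraries examined (each named gene, each ratio and the library total, in each group), 3 had 1 library farther from its nearest neighbour than 0.625 of the range; chance alone gives this in about 5% of sets. PCSK1N in siNC replicate 1 was at 160 CPM, below the 191 to 205 CPM of the other siNC libraries. The same library was the lowest of its group for CHGA, CHGB, CPE, PCSK1 and SCG3, and the summed level of the 10 genes there was 1154 CPM. The log2 ratio of CHGA to CHGB in siZCC replicate 5 was -1.64, above the -1.85 to -1.78 of the other siZCC libraries. The total of siNC replicate 4 was 90755953 counts, below the 109973707 to 120023356 of the other siNC libraries.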

How the results depend on the processing

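The count of 3 genes called among the 10 stayed at 3 under other scalings, filters, DESeq2, limma voom, thinning and both blocks, was 0 in the high and 0 in the low IL1B libraries alone (6 libraries each), and ran from 2 to 3 when single libraries were left out. Calls over all genes also dropped, from 5481 of 24671 to 2043 of 24925 in the high and 1602 of 24824 in the low IL1B libraries. The 21 list genes called became 12 and 6 in the high and low IL1B libraries, and 17 to 22 without single libraries. The PCSK1N to PCSK1 difference of 0.29 ran from 0.25 to 0.34 without single libraries (exact permutation, adjusted p 0.0173 to 0.0433). Its call was lost in the high (0.30) and low (0.28) IL1B libraries, where 3 against 3 cannot pass, and with the replicate block (0.29, sign-flip adjusted p 0.125). That block could not show a smaller p: the difference was positive in 6 of 6 same-numbered pairs, which gives 0.03125, the smallest unadjusted p of 64 sign flips. The labels do not say whether the numbers pair libraries, and the values cannot decide it, since a weak pairing could leave small correlations. Same-numbered deviations correlated from -0.08 to 0.02 over all genes tested. Over the 10 genes alone the values were -0.77, 0.31, 0.74, 0.62, -0.10 and 0.72 for numbers 1 to 6. No siZCC library correlated best with its own number. Among single genes and ratios the block otherwise ended only the call of EIF4G2. The CHGA to CHGB difference of 0.07 passed after thinning (0.082, adjusted exact permutation p 0.0390; the cause was not tested) and ran from 0.038 to 0.081 without single libraries. In the low IL1B libraries the differences of SCG5 to PCSK2 and PCSK1 to PCSK2 turned to 0.25 and 0.12; without single libraries they ran from -0.41 to -0.077 and from -0.31 to -0.037. Among 29 single genes and 665 fits, 15 changed sign, 0 of them in genes called: CHGA was 0.092 in the high IL1B libraries, 0.0044 without siZCC replicate 3 and 0.0056 without siZCC replicate 6 (-0.097 to 0.0056 over single libraries left out); VGF was 0.046 and REST 0.025 in the low IL1B libraries; LRRTM1 was 0.035 in the high ones and 0.0051 without siZCC replicate 3 (-0.062 to 0.0051). PCSK2, at 8 to 22 counts a library, was -0.040 with limma voom, -0.0077 with the replicate block, -0.24 in the low IL1B libraries, -0.014 and -0.0043 without siNC replicates 5 and 6, and -0.057, -0.081 and -0.055 without siZCC replicates 2, 4 and 5 (-0.081 to 0.15). No scaling moved the median of all genes by more than 0.01. PCSK2 and SCG5 had the fewest counts of the 10 genes, and the part of depth in their spread was not tested.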
